A study of Mus musculus with 2 samples.

Results

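The data describe 8 genes of cell-cell junctions, Cldn1, Cldn4, Cldn7, Ocln, Tjp1, F11r, Cdh1 and Cdh3, chosen by symbol from the 27998 genes of the count tables. All 8 symbols were found in both tables. The rule itself used only the symbols, but the genes were proposed with earlier results of these data known. The libraries were single-cell RNA-seq of the epidermis of 2 male C57BL/6J mice at postnatal day 0 of the Chrm3 KO genotype. Chrm3 encodes the M3 muscarinic acetylcholine receptor. WT mice were not analysed here, so every comparison was made between cell classes within the KO and no genotype effect was tested. After quality filters 7607 cells of KO mouse 1 and 11881 cells of KO mouse 2 remained, with 95048258 and 148843409 unique molecular identifiers (UMIs, 1 for each captured RNA molecule). Chrm3 itself had 13 UMIs in KO mouse 1 and 19 in KO mouse 2, and since the place of the deletion relative to the 3' reads was not given in the sources used here, these counts do not check the genotype.

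Tight junctions seal the space between the keratinocytes of the granular layer. Claudins, occludin (Ocln) and the immunoglobulin-type molecule JAM-A (F11r) span the membrane there, and ZO-1 (Tjp1) is a plaque protein that ties them to actin. Adherens junctions hold keratinocytes together in every living layer, through E-cadherin (Cdh1) in the whole epidermis and P-cadherin (Cdh3) mainly in its basal layer and in the hair follicle.

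Cells were grouped into 17 classes by markers that did not include any of these genes. The interfollicular epidermis (IFE) gave resting basal, S phase basal, G2/M basal, transition, differentiated and terminally differentiated classes. The follicle gave progenitor, Shh-type, dividing, inner root sheath or hair shaft, and upper follicle classes, beside sebaceous-like, Merkel-like, melanocyte-like, Langerhans-like, T cell-like and mesenchymal-like classes. These classes held 15928 of the 19488 cells, among them 2483 resting basal cells and, as the smallest class, 39 Merkel-like cells. All cells left out came from IFE clusters. Unnamed IFE clusters held 1866 of them, and IFE clusters led by other markers 1694. In the latter 8.39% and 15.1% of the cells were called doublets. These cells entered none of the IFE stages in the main results. There were 127 barcodes that occurred in both libraries, 34 of them among the cells kept. Levels are CPM, the UMIs of a gene scaled to the same total of UMIs in each class, given for KO mouse 1 and KO mouse 2 and as their mean ± SD (n = 2). They compare 1 gene across classes, not genes with each other.

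The upper follicle was the class with the highest mean level of 5 of the 8 genes, Cldn1, Cldn4, Ocln, F11r and Cdh1. Tjp1 and Cdh3 were highest in the Shh-type follicle class, and Cldn7 in the Merkel-like class. These ranks are of CPM, without the scaling used in the tests (TMM). The top ranks of Cldn4, Ocln, F11r and Cdh1 did not all hold with that scaling or at a higher clustering resolution, as given below. The order of the 17 classes was resolved only in part, because for Cldn1, Cldn4, Cldn7 and Ocln 13 of 16 neighbouring pairs in the order overlapped between the mice. This held for 14 pairs for Tjp1, 12 for F11r and Cdh1, and 11 for Cdh3. Overlap here sets the range of the 2 mice in 1 class against that in the next, without pairing classes by mouse. A shift shared by the classes of 1 mouse can therefore count as overlap. Tjp1, for example, was higher in KO mouse 1 in 15 of the 16 classes with 10 or more UMIs in each mouse.

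**Figure D1:**
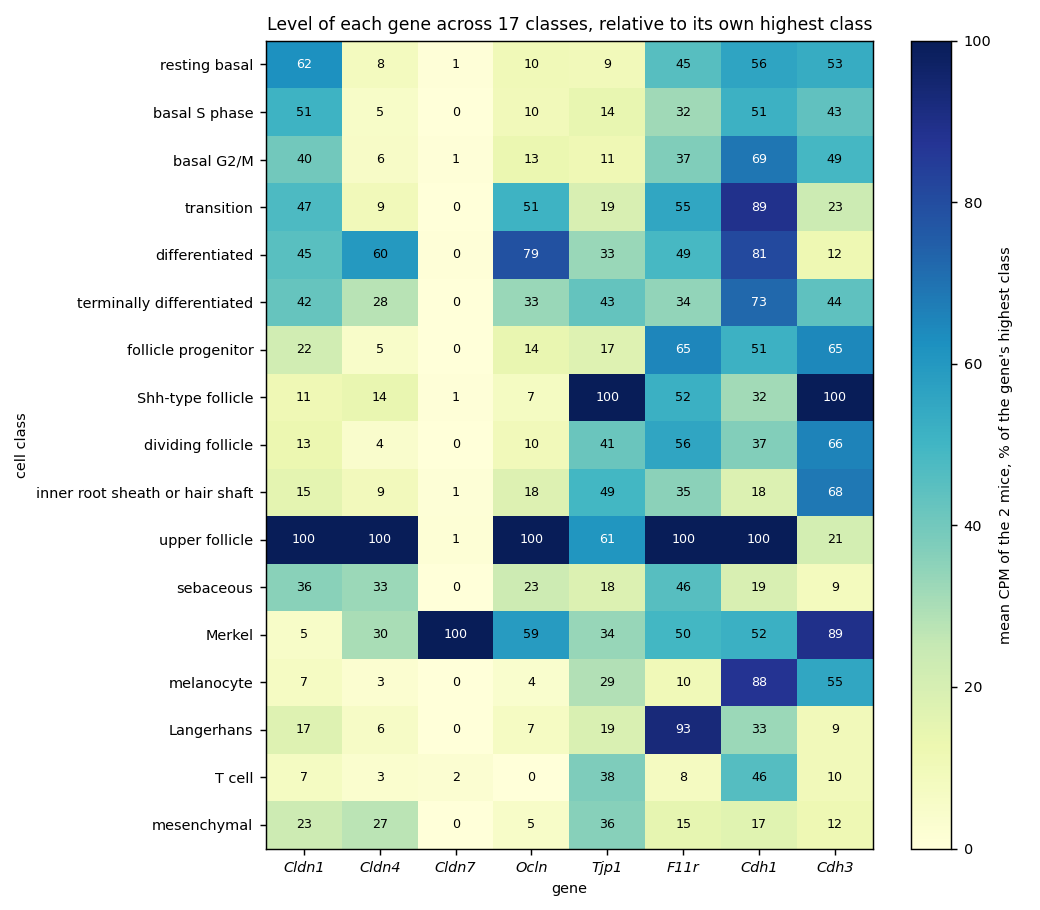
Mean CPM of the 2 KO mice for each gene (columns) in each of the 17 classes (rows), as a percent of that gene's own highest class, so that only values within a column can be compared. The upper follicle row holds the highest value for 5 genes, the Shh-type follicle row for Tjp1 and Cdh3, and the Merkel row for Cldn7.

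The claudins form the paracellular seal, and Cldn1 is the one whose loss in mice is known to open the epidermal barrier to water. Its gene (ENSMUSG00000022512) lies on the minus strand of chromosome 16 at 26356642 to 26371841 (GENCODE M21, GRCm38). Cldn4 (ENSMUSG00000047501; minus strand of chromosome 5, 134945119 to 134946934) encodes a claudin of the granular layer, and Ocln (ENSMUSG00000021638; minus strand of chromosome 13, 100496507 to 100552718) encodes the first membrane protein found in tight junctions. The RefSeq windows from 250 bases before to 50 after the start of these genes (GRCm38.p6) are shown because Cldn4 and Ocln were the members with the highest fold change in the differentiated class while Cldn1 did not pass the test there.
Cldn1 (minus strand, chr16:26371790-26372089): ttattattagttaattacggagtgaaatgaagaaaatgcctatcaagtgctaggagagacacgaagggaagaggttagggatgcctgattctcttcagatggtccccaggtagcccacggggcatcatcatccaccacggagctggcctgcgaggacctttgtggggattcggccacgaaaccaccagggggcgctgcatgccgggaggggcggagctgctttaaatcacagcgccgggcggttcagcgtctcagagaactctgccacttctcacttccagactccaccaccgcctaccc
Cldn4 (minus strand, chr5:134946885-134947184): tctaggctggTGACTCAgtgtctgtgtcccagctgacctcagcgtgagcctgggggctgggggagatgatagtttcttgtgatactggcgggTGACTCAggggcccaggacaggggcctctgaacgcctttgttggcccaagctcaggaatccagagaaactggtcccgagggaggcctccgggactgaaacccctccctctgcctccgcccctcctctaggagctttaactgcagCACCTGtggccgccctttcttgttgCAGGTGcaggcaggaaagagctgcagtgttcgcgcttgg
Ocln (minus strand, chr13:100552669-100552968): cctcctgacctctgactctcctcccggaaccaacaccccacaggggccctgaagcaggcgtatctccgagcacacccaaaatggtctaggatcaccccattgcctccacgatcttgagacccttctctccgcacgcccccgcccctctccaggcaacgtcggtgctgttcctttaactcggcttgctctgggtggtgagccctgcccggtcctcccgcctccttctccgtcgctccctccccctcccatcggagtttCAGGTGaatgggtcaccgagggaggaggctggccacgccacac
Capitals mark matches, read on both strands, to 2 motifs. The E-box CAGGTG is a motif to which the Snail and Zeb repressors can bind. The AP-1 motif searched was TGAGTCA. The Cldn4 window held 2 matches to each, the Ocln window shown 1 E-box, and the Cldn1 window neither. In the windows not shown, the F11r window held 1 match to each motif and the Tjp1 window neither. Of the 2 Cldn7 windows, 1 held 2 E-boxes and the other neither motif. The second Ocln window held 2 E-boxes, but it overlaps the window shown. The E-box of the window shown is 1 of these 2, so both Ocln windows together hold 2 E-boxes. Over all 8 windows, 5 held an E-box, with the shared site counted in both Ocln windows, and 2 an AP-1 match. No window was found for Cdh1 or Cdh3, so neither was searched. Within a window no matches overlapped. Among all 32851 promoter windows of this length 20.2% held the E-box letters and 5.20% the AP-1 letters, and the Grainyhead motif AACCGGTT, in 0.146% of all windows, was in none of the 8 windows found for 6 of the 8 genes. A match is a stretch of letters and not a measured binding site.

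No difference in Cldn1 between IFE stages passed the test as designed, while several passed with the mouse as a block or with no filter on low counts. The change in dividing basal cells also passed at the higher clustering resolution of 1.2 and in the fit over all classes. It was at 182 CPM in KO mouse 1 and 116 CPM in KO mouse 2 in resting basal cells (149 ± 46.8), at 127 and 98.8 in transition cells (113 ± 20.1) and at 127 and 89.1 in differentiated cells (108 ± 26.8). The values of these stages overlapped between the mice, with the higher value in KO mouse 1 in 14 of the 15 classes that had 10 or more UMIs in each mouse. The log2 fold change of the differentiated against the resting basal class was -0.30 (SE 0.25), and the quasi-likelihood test of edgeR, adjusted by Benjamini-Hochberg over all genes tested, gave an adjusted p of 0.319. With the mouse as a block, which takes up a shift shared by the classes of 1 mouse, the same change was -0.29 (SE 0.077) and the adjusted p 0.00178 in edgeR. For the transition class the change was -0.31 (SE 0.25, edgeR adjusted p = 0.434), and -0.28 (SE 0.085, edgeR adjusted p = 0.0117) with the block.

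Cldn4 was low in basal and transition cells and higher in the differentiated class. Resting basal cells had 29 and 36 UMIs, or 3.38 and 2.45 CPM (2.91 ± 0.66), and transition cells 3.01 and 3.99 CPM (3.50 ± 0.70). Differentiated cells had 157 and 162 UMIs, or 23.6 and 20.7 CPM (22.2 ± 2.06). Both differentiated values lay above all basal and transition values, and the log2 fold change over resting basal cells was 3.11 (SE 0.24, edgeR adjusted p = 6.53e-08). In the transition class the change was 0.42 (SE 0.35, edgeR adjusted p = 0.441). Clustering at the higher resolution of 1.2 gave 1.25 in the transition class (edgeR adjusted p = 0.00402).

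Ocln was already higher in the transition class. It was at 2.68 and 2.45 CPM in resting basal cells (2.56 ± 0.16), 13.5 and 11.6 in transition cells (12.6 ± 1.38) and 22.6 and 16.2 in differentiated cells (19.4 ± 4.48). The 3 stages did not overlap between the mice. Its log2 fold changes over resting basal cells were 2.37 (SE 0.28, edgeR adjusted p = 2.93e-05) in transition and 3.07 (SE 0.25, edgeR adjusted p = 1.02e-07) in differentiated cells.

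In single cells both genes were sparse. After each cell was thinned to 3000 UMIs, 4.98% and 4.31% of differentiated cells had a Cldn4 UMI, and without thinning the mean was 18.4%. For Ocln the thinned shares were 5.98% and 5.93%, with 32.0% before thinning. The melanocyte-like class, which should lack both, had thinned shares of 0.236% and 0.418% for Cldn4 and 0.236% and 0% for Ocln, with a median depth of 8786 UMIs in KO mouse 1 against 19096.5 in its differentiated cells.

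**Figure D2:**
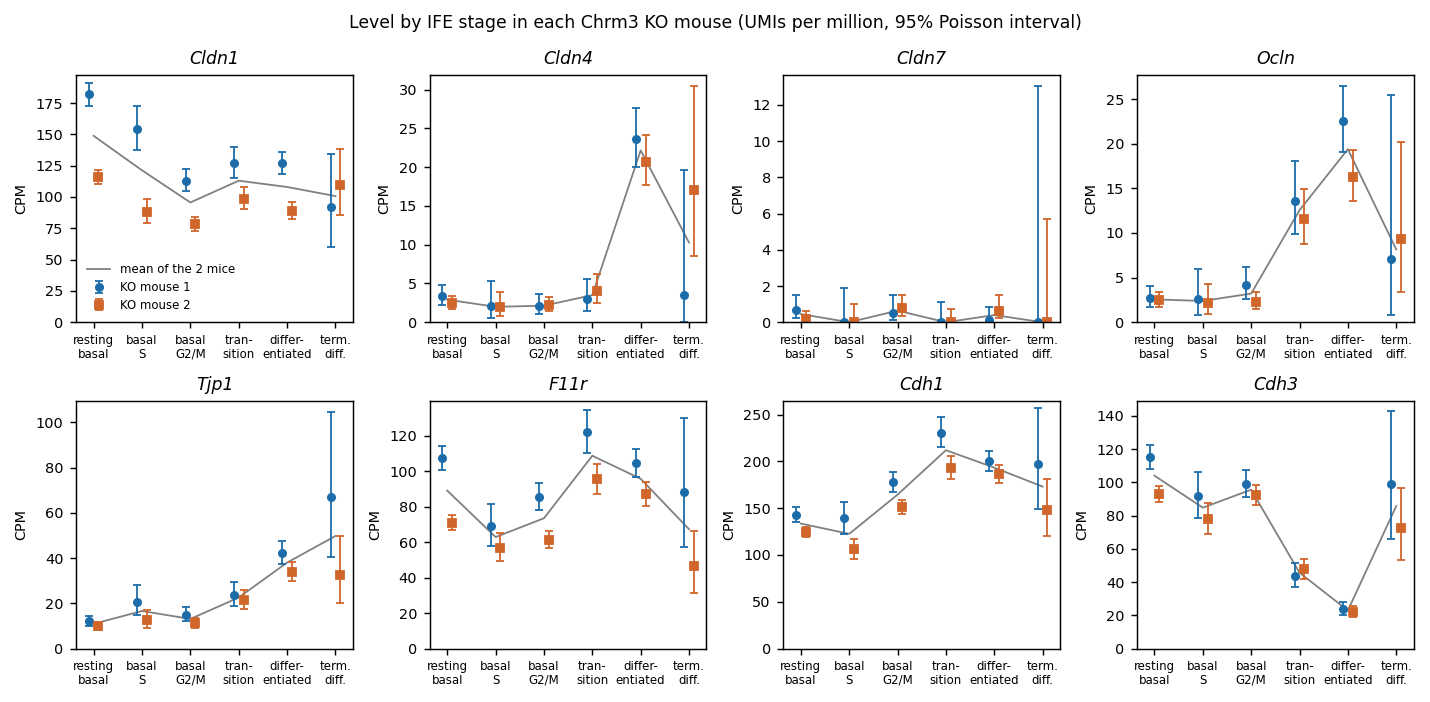
CPM of each gene (vertical axes, linear from 0) in the 6 IFE classes (horizontal axes) for KO mouse 1 (circles) and KO mouse 2 (squares), with 95% Poisson intervals that cover counting error only, and the mean of the mice as a line. the mean of Cldn4 is 3.50 CPM or less in the 4 classes before the differentiated one, Ocln and Tjp1 are higher from the transition class on, and Cdh3 goes from 104 to 22.9 CPM before it is 85.7 CPM in the terminally differentiated class.

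Tjp1, the ZO-1 plaque gene (ENSMUSG00000030516; minus strand of chromosome 7, 65296165 to 65527781), was lowest in resting basal cells of all 17 classes. It was at 12 and 9.86 CPM there (10.9 ± 1.51), at 23.7 and 21.4 in transition cells (22.6 ± 1.69) and at 42.3 and 33.7 in differentiated cells (38.0 ± 6.03). Each stage lay above the one before it in both mice. The log2 fold changes over resting basal cells were 1.14 (SE 0.22, edgeR adjusted p = 0.00206) and 1.96 (SE 0.20, edgeR adjusted p = 1.16e-06). With mitochondrial UMIs under 5% the first change was 1.58 and its call was lost (edgeR adjusted p = 0.0620).

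F11r, which encodes JAM-A (ENSMUSG00000038235; plus strand of chromosome 1, 171437535 to 171464603), changed less along the IFE. It was at 107 and 70.8 CPM in resting basal cells (89.1 ± 25.8), at 122 and 95.4 in transition cells (109 ± 18.9) and at 105 and 86.9 in differentiated cells (95.7 ± 12.5). The stages overlapped between the mice. Its log2 fold changes over resting basal cells were 0.38 (SE 0.20, adjusted p = 0.208) in transition and 0.27 (SE 0.19, adjusted p = 0.260) in differentiated cells by edgeR, and with the mouse as a block the adjusted p was 0.000294 and 0.00139.

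Both cadherin genes lie side by side on the plus strand of chromosome 8, Cdh3 (ENSMUSG00000061048) at 106510891 to 106557297 and Cdh1 (ENSMUSG00000000303) at 106603351 to 106670246. They differed from resting basal cells in opposite directions in the transition and differentiated classes. Cdh1 was at 143 and 124 CPM in resting basal cells (134 ± 13.0), 231 and 193 in transition cells (212 ± 26.8) and 200 and 186 in differentiated cells (193 ± 9.93). Both later stages lay above resting basal cells in both mice, with log2 fold changes of 0.75 (SE 0.13, edgeR adjusted p = 0.000715) and 0.69 (SE 0.13, edgeR adjusted p = 0.000328).

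Cdh3 was at 115 and 92.9 CPM in resting basal cells (104 ± 15.7), 43.6 and 47.7 in transition cells (45.6 ± 2.90) and 23.9 and 21.9 in differentiated cells (22.9 ± 1.46). The fall was stepwise and without overlap. The log2 fold changes against resting basal cells were -1.09 (SE 0.12, edgeR adjusted p = 2.16e-05) in transition and -2.03 (SE 0.13, edgeR adjusted p = 7.36e-09) in differentiated cells. Within the resting basal class, the cluster led by Pcsk2, Lef1 and Kremen2 had a mean of 125 CPM of Cdh3 and the cluster led by H19 and Igf2 83.4 CPM, while their Cdh1 means were 136 and 131 CPM. These cluster values are a description with no test.

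Cldn7 (ENSMUSG00000018569; plus strand of chromosome 11, 69964779 to 69967885) did not pass the filter on low counts in the IFE, which left 7 of the 8 genes in the IFE tests. Resting basal cells had 6 and 3 UMIs and differentiated cells 1 and 5. In transition cells 0 of 3327063 UMIs were found in KO mouse 1 and 0 in KO mouse 2, where a count of 0 allows up to 0.902 and 0.599 CPM (3 UMIs).

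In the transition class 3 of the 7 genes tested rose (Ocln, Tjp1, Cdh1) and 1 fell (Cdh3), where 21.7% of all 11662 genes tested passed. In the differentiated class 4 rose (Cldn4, Ocln, Tjp1, Cdh1) and 1 fell (Cdh3), against 54.4% of all genes. The medians of the 7 log2 fold changes were 0.42 and 0.69, and those of all genes -0.0071 and 0.0086. With the mouse as a block 6 and 7 of the 7 genes passed, where 32.6% and 63.4% of all genes did.

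The scaling of the libraries moved the direction of calls over all genes, which bears on small changes. TMM assumes that most genes do not change, while total UMIs do not. With total UMIs the share of calls that were higher went from 52.1% to 39.0% in transition cells, 52.0% to 40.4% in differentiated cells, 50.5% to 74.2% in terminally differentiated against differentiated cells and 61.2% to 73.8% against resting basal cells. It went from 60.9% to 80.9% in dividing cells, 51.5% to 73.0% in follicle cells, 54.7% to 71.6% in the upper follicle and 52.1% to 78.0% there against differentiated cells, 50.8% to 61.2% in the inner root sheath or hair shaft, and 52.0% to 68.1% in melanocyte-like cells. In sebaceous-like cells it went from 52.0% to 50.3%, and in Langerhans-like cells from 52.1% to 43.7%. The median of all genes then lay between -0.21, in Langerhans-like cells, and 0.37, in the upper follicle against differentiated cells.

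Other junction genes and regulators were taken from a list of 46 junction genes and 12 regulators found in the tables. Of 33 junction genes tested, 8 rose and 6 fell in transition cells, and 15 rose and 10 fell in differentiated cells. The shares of all genes that passed there were 21.7% and 54.4%. Of 7 activators of epithelial genes tested, 5 rose and 1 fell in transition cells, and 5 rose and 2 fell in differentiated cells. Of the 2 repressors tested, 1 fell in each.

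Among the largest of these changes were those of Grainyhead factors and nectin-4. Grhl1, a Grainyhead transcription factor of the epidermis, was at 2.56 and 4.22 CPM in resting basal cells, 20.1 and 19.4 in transition cells and 108 and 95.2 in differentiated cells. Its log2 fold changes over resting basal cells were 2.55 (SE 0.23, edgeR adjusted p = 3.17e-06) and 4.97 (SE 0.19, edgeR adjusted p = 7.75e-11). Grhl3, needed for barrier formation, went from 0 and 3 UMIs in resting basal cells to 6 and 9 UMIs in transition and 36 and 36 in differentiated cells. Both its changes passed the test (edgeR adjusted p = 0.00555 and 9.36e-06), but with so few basal UMIs the fitted size depends on the prior count.

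Pvrl4, which encodes nectin-4 of the adherens junction, rose with them. It was at 2.80 and 4.96 CPM in resting basal, 37.6 and 36.5 in transition and 122 and 103 in differentiated cells, with log2 fold changes of 3.25 (SE 0.19, edgeR adjusted p = 5.00e-08) and 4.92 (SE 0.17, edgeR adjusted p = 3.17e-11). Marveld2, which encodes tricellulin, rose by 2.16 in transition cells (SE 0.27, edgeR adjusted p = 4.89e-05), and the claudin gene Cldn23 by 3.42 in differentiated cells (SE 0.45, edgeR adjusted p = 1.61e-05). Snai2, the E-box repressor Slug, was the repressor that fell and is named here after its values were seen. It was at 67.2 and 64.1 CPM in resting basal, 44.2 and 41.5 in transition and 25.9 and 24.9 in differentiated cells (log2 fold changes -0.53 and -1.22, edgeR adjusted p = 0.00316 and 3.76e-07). Both repressors tested were higher in terminally differentiated than in differentiated cells. The activators that fell are not named for these comparisons.

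**Figure D3:**
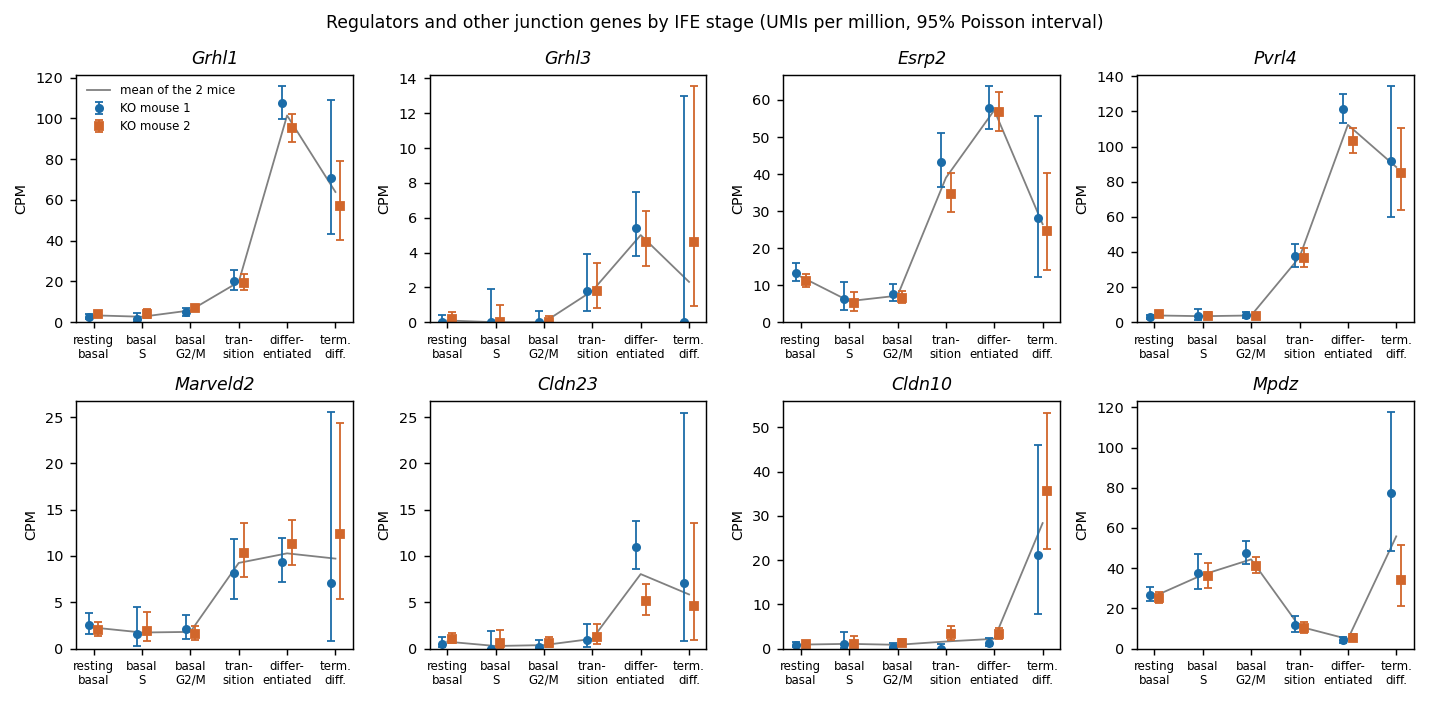
CPM of 8 regulators and junction genes outside the set (vertical axes, linear from 0) in the 6 IFE classes for KO mouse 1 (circles) and KO mouse 2 (squares), with 95% Poisson intervals and the mean of the mice as a line. Grhl1 and Pvrl4 are above 90 CPM in both mice in the differentiated class and below 5 CPM in resting basal cells, and Mpdz has its lowest values in the differentiated class.

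The terminally differentiated class was small and shallow, with 44 and 55 cells, a median of 3940.5 UMIs per cell in KO mouse 1, and 21 of its 44 cells below 3000 UMIs. It also held markers of dividing cells and of melanocytes. The summed level of 22 G2/M markers was 2308 and 2634 CPM against 187 and 222 in differentiated cells, and that of 10 melanocyte markers 335 and 357 CPM against 25.1 and 80.1, with none of these markers at 0. Its 24 S phase markers summed to 1800 and 1320 CPM, against 320 and 393 in differentiated cells. Its 11 Shh-type follicle markers summed to 836 and 658 CPM, against 90.1 and 136. The part of all these markers in the values that follow was not tested.

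Ocln, F11r and Cdh1 were lower in terminally differentiated than in differentiated cells, and Cdh3 was higher, so 4 of 7 genes passed where 28.9% of all genes did. Ocln was at 7.06 and 9.27 CPM there (2 and 6 UMIs; log2 fold change -1.45, SE 0.47, edgeR adjusted p = 0.0299). F11r was at 88.2 and 46.4 CPM (-0.96, SE 0.33, edgeR adjusted p = 0.0423) and Cdh1 at 198 and 148 CPM (-0.51, SE 0.17, edgeR adjusted p = 0.0328). These 3 calls were lost when total UMIs replaced the TMM scaling, with edgeR adjusted p of 0.0839, 0.181 and 0.422. With mitochondrial UMIs under 5% the F11r and Cdh1 calls were also lost (edgeR adjusted p = 0.0808 and 0.0605), as were F11r at resolution 1.2 (edgeR adjusted p = 0.0501) and Cdh1 in the fit over all classes (edgeR adjusted p = 0.0604).

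Cdh3 was at 98.8 and 72.7 CPM in terminally differentiated cells (85.7 ± 18.5), above both differentiated values, with a log2 fold change of 1.54 (SE 0.20, edgeR adjusted p = 5.59e-05). Other classes also held Cdh3. Its mean was 104 CPM in resting basal and 108 CPM in melanocyte-like cells. It was higher in Shh-type (195), Merkel-like (174), inner root sheath or hair shaft (133), dividing follicle (128.5) and progenitor (126) cells. Against resting basal cells, Cldn4 and Tjp1 rose, so 2 of 7 genes passed, where 21.9% of all genes did. The Cldn4 call (log2 fold change 2.03, SE 0.53, edgeR adjusted p = 0.0121) rested on KO mouse 2, with 11 UMIs or 17 CPM, while KO mouse 1 had 1 UMI and, taken alone, a log2 ratio of -0.17. It was also lost with mitochondrial UMIs under 5% (edgeR adjusted p = 0.118). Tjp1 was at 67.0 and 32.5 CPM, with a change of 1.88 (SE 0.36, edgeR adjusted p = 0.00132). With the mouse as a block, Cldn1, Ocln and F11r also passed against resting basal cells, which made 5 genes where 24.1% of all genes passed (edgeR adjusted p = 0.0275, 0.0448 and 0.0217), and Cldn4 passed against differentiated cells (edgeR adjusted p = 0.0486).

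Among the other junction genes and regulators, those with the largest changes here were Cldn10, Zeb2, Mpdz and Cgnl1. Zeb2, an E-box repressor, had 5 and 6 UMIs in terminally differentiated cells, and the melanocyte-like and Langerhans-like classes had 268 and 247 and 178 and 185 CPM of it. Cldn10, another claudin gene, was at 21.2 and 35.6 CPM against 1.2 and 3.19 in differentiated cells (log2 fold change 3.46, SE 0.71, edgeR adjusted p = 0.00206). Mpdz and Cgnl1, of the junction plaque, rose by 3.05 (SE 0.33, edgeR adjusted p = 7.67e-06) and 2.90 (SE 0.66, edgeR adjusted p = 0.00412), the latter on 3 and 16 UMIs. The Zeb2 change was 3.41 (SE 0.89, edgeR adjusted p = 0.0111). Against resting basal cells the largest changes were those of Cldn10 (4.86), Zeb2 (4.5), Grhl3 (4.30) and Pvrl4 (4.27). Of the 33 junction genes tested, 8 rose and 4 fell against differentiated cells, and 10 rose and 3 fell against resting basal cells. Of the 7 activators tested, 2 rose and 4 fell against differentiated cells, and 5 rose and 0 fell against resting basal cells. Of the 2 repressors tested, 2 rose against differentiated cells and 1 against resting basal cells. The shares of all genes that passed were 28.9% and 21.9%.

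Dividing basal cells were the next comparison. S phase cells (140 and 270) and G2/M cells (405 and 743) were weighted equally against resting basal cells. The summed level of 16 follicle progenitor markers was 1612 and 1616 CPM in S phase and 2867 and 2745 CPM in G2/M cells. It was 507 and 634 CPM in resting basal cells, and 2619 and 2370 CPM in transition cells. The part of these markers in the values that follow was not tested. Cdh3 was lower, at 91.6 and 77.8 CPM in S phase and 99.0 and 92.1 in G2/M cells (log2 fold change -0.31, SE 0.098, edgeR adjusted p = 0.0383), and it was the 1 call among 7 genes, where 18.6% of all genes passed. That call was lost with total UMIs in place of TMM (edgeR adjusted p = 0.184), in the fit over all classes (edgeR adjusted p = 0.0700), under DESeq2 (adjusted p = 0.0617) and at resolution 1.2 (-0.050, edgeR adjusted p = 0.753). Cldn1 and F11r had changes of -0.59 (SE 0.21) and -0.50 (SE 0.17) with edgeR adjusted p of 0.0730 and 0.0612. With the mouse as a block both fell, with edgeR adjusted p of 3.80e-07 and 1.12e-05, and 3 genes passed where 31.6% of all genes did. Both also passed as lower with no filter on low counts and at resolution 1.2 (edgeR adjusted p = 0.0283 and 0.0409 at the latter). The fit over all classes called both too (edgeR adjusted p = 0.0192 and 0.0117). F11r passed as well with unnamed IFE clusters counted as basal cells (edgeR adjusted p = 0.0454).

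Among the 33 other junction genes tested 3 rose and 3 fell in dividing cells, and 1 of 7 activators fell, where 18.6% of all genes passed. The cingulin-like gene Cgnl1 rose by 1.62 (SE 0.48, edgeR adjusted p = 0.0285) and Pvrl1 by 0.55 (SE 0.11, edgeR adjusted p = 0.00287). Esrp2, an epithelial splicing factor, fell by 1.05 (SE 0.16, edgeR adjusted p = 0.000243) and Marveld3 by 0.88 (SE 0.19, edgeR adjusted p = 0.00514).

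Follicle progenitor and Shh-type cells were compared together with resting basal cells, where 4 of 7 genes passed against 40.5% of all 14102 genes tested. Cldn7 entered this fit and those that follow only through its counts in the Merkel-like class, so it is left out of the counts of genes that passed. Cldn1 was lower in both, at 59.96 and 43.8 CPM in progenitor cells and 31.5 and 21.6 in Shh-type cells (log2 fold change -2.22, SE 0.19, edgeR adjusted p = 7.16e-11). Neither class reached the lowest resting basal value of 116 CPM in either mouse. Cdh1 also fell (-0.68, SE 0.14, edgeR adjusted p = 0.000211), with 130 and 114 CPM in progenitor cells and 78.7 and 71.6 in Shh-type cells.

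Tjp1 and Cdh3 rose, and the Shh-type class carried most of both changes. Tjp1 was at 20.4 and 20 CPM in progenitor cells (20.2 ± 0.28) but at 139 and 92.4 in Shh-type cells (116 ± 33.1), the highest of all classes, with a combined log2 fold change of 1.95 (SE 0.21, edgeR adjusted p = 7.86e-09). Cdh3 was at 137 and 115 CPM in progenitor and 215.2 and 174.5 in Shh-type cells, with a combined change of 0.39 (SE 0.13, edgeR adjusted p = 0.0174), a call that was lost with mitochondrial UMIs under 5% (edgeR adjusted p = 0.144). The difference between progenitor and Shh-type cells itself was not tested.

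The upper follicle had the highest mean levels of Cldn1, Cldn4, Ocln, F11r and Cdh1, but not of Cldn7. These means are CPM, without the TMM scaling of the tests. The values of Ocln, F11r and Cdh1 overlapped between the mice with those of the next class. These were the differentiated, Langerhans-like and transition classes. Within each mouse the CPM of Ocln and Cdh1 was higher in the upper follicle than in that next class, while that of F11r was so only in KO mouse 1. With TMM scaling and 1 mouse at a time, this did not hold. Ocln then differed from differentiated cells by -0.0066 and 0.036 on the log2 scale. Over resting basal cells, F11r was at 0.85 to 1.07 in the upper follicle and 0.87 to 1.53 in Langerhans-like cells. Cdh1 was at 0.54 to 0.71 in the upper follicle and, among the IFE classes, 0.69 to 0.77 in transition cells. Cldn4 was at 42.3 and 32.0 CPM (37.2 ± 7.31; log2 fold change over resting basal cells 3.51, SE 0.27, edgeR adjusted p = 4.34e-12) and Ocln at 28.8 and 20.6 CPM (24.7 ± 5.75; 3.07, SE 0.26, edgeR adjusted p = 8.26e-11). Both were far above resting basal cells in each mouse. F11r was at 220 and 173 CPM (197 ± 33.5; 0.95, SE 0.17, edgeR adjusted p = 2.08e-05).

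Tjp1 was at 76.3 and 64.0 CPM in the upper follicle (70.1 ± 8.67; log2 fold change 2.50, SE 0.23, edgeR adjusted p = 2.99e-10) and Cdh1 at 266 and 211 CPM (238 ± 39.3; 0.64, SE 0.16, edgeR adjusted p = 0.00188). Cdh3 was low at 37.8 and 43.4 CPM (-1.55, SE 0.16, edgeR adjusted p = 4.80e-09). Thus 5 genes rose and 1 fell of 7, where 42.1% of all genes passed. Cldn1 was at 266 and 212 CPM, above resting basal cells in each mouse, with a change of 0.49 (SE 0.21, edgeR adjusted p = 0.0636), and it passed with the mouse as a block (edgeR adjusted p = 0.000421). Of the 42 junction genes tested, 22 rose and 3 fell.

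Against differentiated IFE cells, 4 of 7 genes were higher in the upper follicle, where 43.3% of all genes passed. Cldn1 rose by 0.79 (SE 0.22, edgeR adjusted p = 0.00382) and F11r by 0.68 (SE 0.17, edgeR adjusted p = 0.00130) on the log2 scale. Tjp1 rose by 0.53 (SE 0.21, edgeR adjusted p = 0.0411) and Cdh3 by 0.47 (SE 0.19, edgeR adjusted p = 0.0396). The Tjp1 call was lost under DESeq2 (adjusted p = 0.0840) and, with a change of -0.0014, at resolution 1.2, and the Cdh3 call was lost without called doublets (edgeR adjusted p = 0.0514). The Tjp1 call was lost too with mitochondrial UMIs under 5% (edgeR adjusted p = 0.251). The Cdh3 change was 0.30 in KO mouse 1 and 0.68 in KO mouse 2 taken alone. Cdh1 was not called, and its change lay between -0.099 and 0.30 over the alternatives. Cldn4 had a change of 0.39 (SE 0.22, edgeR adjusted p = 0.150), which passed as a rise with the mouse as a block (edgeR adjusted p = 0.0472) and as a fall of -0.82 at resolution 1.2 (edgeR adjusted p = 0.00169). Ocln had a change of -0.0025 (SE 0.21, edgeR adjusted p = 1).

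**Figure D4:**
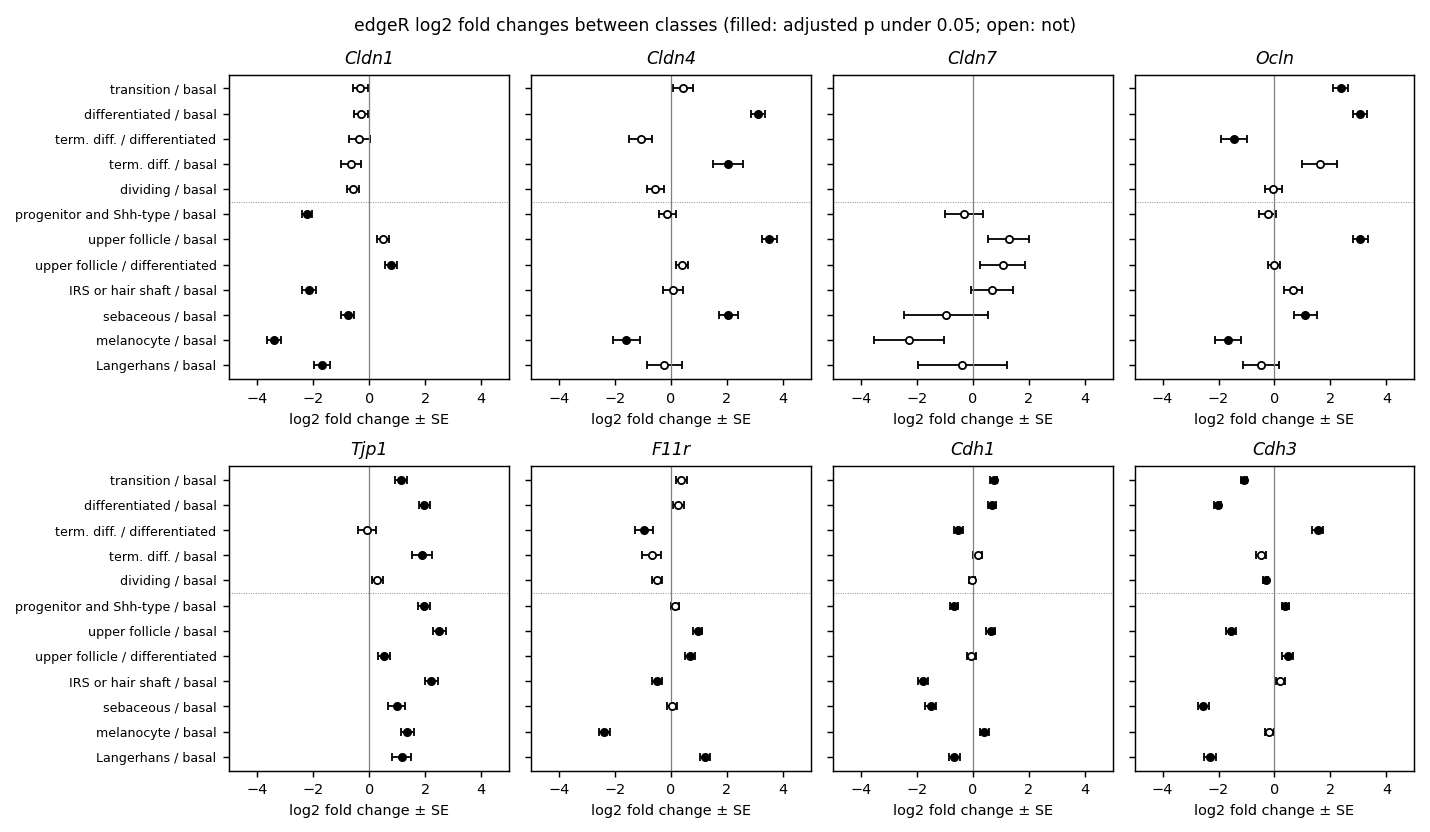
log2 fold changes with standard errors from edgeR's quasi-likelihood fits (horizontal axes) for each gene in 12 comparisons (vertical axis), with the 5 IFE comparisons above the dotted line, filled where the adjusted p was under 0.05. Cldn4 and Ocln lie at or above 3 in the differentiated and upper follicle classes, Cdh3 lies below -2 in differentiated, sebaceous and Langerhans cells, and Tjp1 lies above 0 in every comparison with resting basal cells.

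In the inner root sheath or hair shaft class Cldn1, Cdh1 and F11r fell and Tjp1 rose, with 4 of 7 genes passing against 50.8% of all genes. The class also held markers of dividing cells. The summed level of the S phase markers was 3040 and 3112 CPM, against 629 and 731 in resting basal cells. That of the G2/M markers was 4672 and 4546 CPM, against 151 and 182. Their part in the values of this class was not tested. Cldn1 was at 38.1 and 35.7 CPM (log2 fold change -2.15, SE 0.24, edgeR adjusted p = 6.40e-09) and Cdh1 at 40.6 and 45.6 CPM (-1.76, SE 0.18, edgeR adjusted p = 9.98e-10). Tjp1 was at 71.8 and 42.3 CPM (2.22, SE 0.23, edgeR adjusted p = 2.54e-09). F11r, at 77.6 and 61.8 CPM, passed as lower (-0.50, SE 0.17, edgeR adjusted p = 0.0155), a call that was lost with total UMIs in place of TMM (edgeR adjusted p = 0.108) and with mitochondrial UMIs under 5% (edgeR adjusted p = 0.215). Cdh3 stayed high at 148 and 119 CPM (0.21, SE 0.15, edgeR adjusted p = 0.262), and Ocln passed only with the mouse as a block and with total UMIs in place of TMM (0.66 and 0.80, edgeR adjusted p = 0.0329 and 0.0409).

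Sebaceous-like cells had little of either cadherin. Cdh3 was at 8.98 and 24.4 CPM, the lowest mean of the 17 classes (16.7 ± 10.9; log2 fold change -2.54, SE 0.21, edgeR adjusted p = 2.06e-11), and Cdh1 at 38.2 and 53.3 CPM (-1.50, SE 0.19, edgeR adjusted p = 1.51e-07). Cldn4 was higher than in resting basal cells, at 17.1 and 7.24 CPM (2.06, SE 0.35, edgeR adjusted p = 1.50e-05). In all, Cldn4, Ocln and Tjp1 rose and Cldn1, Cdh1 and Cdh3 fell, so 6 of 7 genes passed where 46.7% of all genes did. The Ocln call rested on 18 and 10 UMIs and was lost when the unnamed IFE clusters were counted as basal cells (edgeR adjusted p = 0.242) and at resolution 1.2 (edgeR adjusted p = 0.0636). Its change was 1.60 in KO mouse 1 and 0.38 in KO mouse 2 taken alone. The mice also differed for Cldn4 (2.34 and 1.5) and Cdh3 (-3.63 and -1.97). The calls of Cldn4, Ocln and Tjp1 were lost with mitochondrial UMIs under 5% (edgeR adjusted p = 0.0853, 0.137 and 0.163).

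Melanocytes and Langerhans cells sit between keratinocytes and attach to them through E-cadherin. RNA that leaks from broken keratinocytes can reach any droplet, so levels there were set beside those of Krt10, Krt1, Krt5, Krt14 and Krtdap, which these cells should lack. In the melanocyte-like class these 5 RNAs were at 10.9% to 33.9% of their level over all cells. Cldn1 (17.7% and 23.4%), Cldn4 (15.4% and 22.8%), Ocln (9.32% and 23.4%) and F11r (18.7% and 20.8%) were in or just below that range. Cdh1 was at 154% and 154%, Cdh3 at 104% and 104%, and Tjp1 at 88.2% and 102%.

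Cdh1 was at 225 and 193 CPM in melanocyte-like cells (209 ± 22.9), higher than in resting basal cells (log2 fold change 0.41, SE 0.16, edgeR adjusted p = 0.0352). The call was lost with unnamed IFE clusters counted as basal cells (0.25, edgeR adjusted p = 0.197) and with mitochondrial UMIs under 5% (edgeR adjusted p = 0.139). Cdh3 was at 113 and 102 CPM (-0.19, SE 0.15, edgeR adjusted p = 0.328), and Tjp1 at 35.7 and 30.5 CPM (1.37, SE 0.24, edgeR adjusted p = 2.21e-05). In the larger of the melanocyte clusters, where Cldn1 and F11r had means of 6.73 and 7.03 CPM, Cdh1 was still at 211 CPM and Cdh3 at 101 CPM.

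Cldn1, Cldn4, Ocln and F11r fell in melanocyte-like cells, the strongest being Cldn1 at 17.1 and 15.9 CPM (log2 fold change -3.40, SE 0.26, edgeR adjusted p = 3.69e-12). Thus 2 genes rose and 4 fell of 7, where 52.2% of all genes passed. The calls of Cldn4 and Ocln were lost with mitochondrial UMIs under 5% (edgeR adjusted p = 0.548 and 0.403), and that of Cldn4 also at resolution 1.2 (edgeR adjusted p = 0.0616). After thinning, 48.6% and 44.9% of melanocyte-like cells had a Cdh1 UMI and 28.8% and 24.6% a Cdh3 UMI, against 34.1% and 31.4% and 27.5% and 24.8% of resting basal cells. Without thinning the melanocyte means were 82.7% and 59.7%. Scrublet called 9.61% and 12.1% of the class as doublets. With called doublets left out, the calls of these genes against resting basal cells held. The part of doublets in the shares of cells was not tested.

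In Langerhans-like cells the JAM-A gene stood out. F11r was at 182 and 183 CPM (182 ± 1.15), against 107 and 70.8 in resting basal cells (log2 fold change 1.21, SE 0.18, edgeR adjusted p = 1.11e-06). That was 158% and 204% of its level over all cells, while the 5 keratinocyte RNAs were at 12.6% to 36.9%. Cldn1 (47.8% and 54.1%), Tjp1 (62.61% and 62.15%) and Cdh1 (73.3% and 39.0%) also lay above that range. Scrublet called 8.97% and 11.4% of the class as doublets. Thinned shares of cells with an F11r UMI were 38.9% and 44.6%, with 82.0% before thinning, beside 4.95% and 3.49% in the melanocyte-like class.

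Cdh1 differed between the mice in Langerhans-like cells, at 107 and 48.8 CPM (77.9 ± 41.1), and was lower than in resting basal cells (log2 fold change -0.66, SE 0.19, edgeR adjusted p = 0.00486), with changes of -0.30 in KO mouse 1 and -1.19 in KO mouse 2 taken alone. Cdh3 was at 15.8 and 20.9 CPM (-2.31, SE 0.23, edgeR adjusted p = 6.30e-10) and Cldn1 at 46.2 and 36.7 CPM (-1.69, SE 0.28, edgeR adjusted p = 6.99e-06). With Tjp1, which rose at 25.3 and 18.6 CPM (1.16, SE 0.34, edgeR adjusted p = 0.00492), 5 of 7 genes passed where 49.4% of all genes did. The Tjp1 call was lost without called doublets (0.79, edgeR adjusted p = 0.0811) and with mitochondrial UMIs under 5% (edgeR adjusted p = 0.102).

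**Figure D5:**
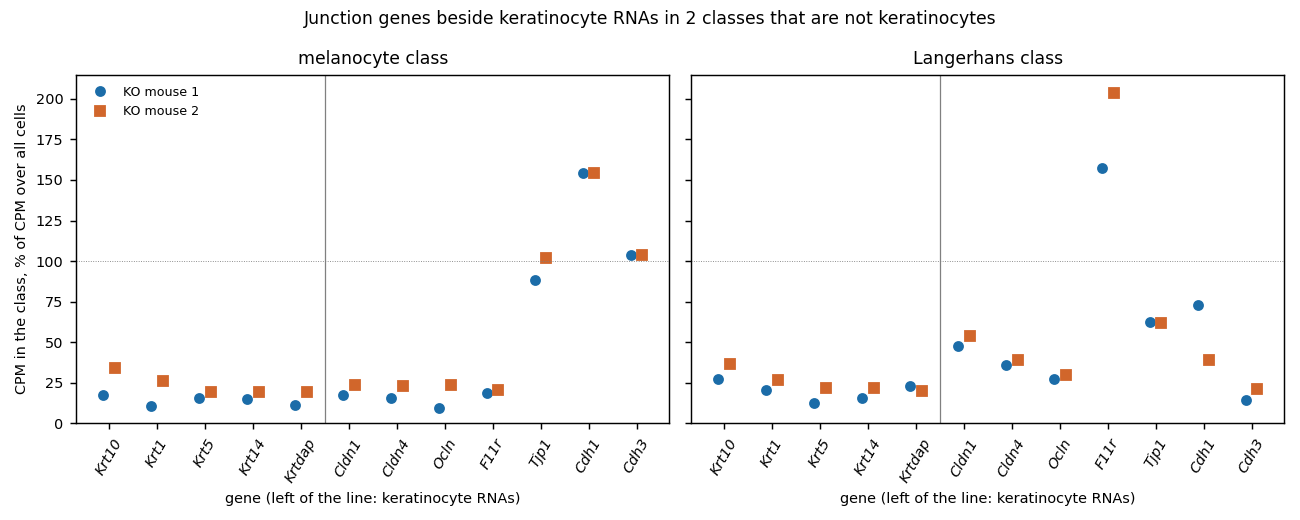
CPM of each gene in the melanocyte-like (left) and Langerhans-like (right) class as a percent of its CPM over all cells kept (vertical axis, linear from 0), for KO mouse 1 (circles) and KO mouse 2 (squares), with 5 keratinocyte RNAs left of the line. In melanocyte-like cells Tjp1, Cdh1 and Cdh3 lie at 88.2% or more while the keratinocyte RNAs lie at 33.9% or less, and in Langerhans-like cells F11r lies at 158% and 204%.

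T cell-like cells (52 and 38 cells) had 109 CPM of Cdh1 in each mouse, on 61 and 45 UMIs, which was 74.8% and 86.9% of its level over all cells. The 5 keratinocyte RNAs were at 16.4% to 41.0% there. Tjp1, at 53.7 and 33.9 CPM, also lay above that range, and Ocln had no UMI in either mouse. As the reverse, Pmel, a melanosome gene, was at 3533 and 3695 CPM in melanocyte-like cells. In the 12 keratinocyte classes its median was 5.84 CPM. Its highest value there, 88.1 CPM, was in the terminally differentiated class of KO mouse 2. Whether this Pmel was leaked RNA was not tested.

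Merkel-like cells, the touch receptors of the epidermis, held Cldn7. They had 20 and 10 Cldn7 UMIs, or 108 and 63.6 CPM (86.0 ± 31.6), on 20 and 19 cells. All other classes together had 37 and 45 UMIs, or 0.456 and 0.363 CPM, with no class above 2.42 CPM in either mouse. Among thinned Merkel-like cells 50% and 29.4% had a Cldn7 UMI, and among resting basal cells 0.442% and 0.0655%. Cldn7 passed the filter on low counts of the fit over all classes through this class alone, and no comparison of it with the Merkel-like class was among the tests.

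The identity of those cells rested on 9 Merkel markers with a summed level of 4062 and 3822 CPM, against at most 8.37 CPM in the other classes except the mesenchymal-like class, which had 126 and 239 CPM. Cdh3 was at 157 and 191 CPM in them (174 ± 23.8), next to the Shh-type class in the order of classes and overlapping with it. Cldn1 had 0 and 4 UMIs there, and a count of 0 in KO mouse 1 allows up to 16.2 CPM.

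Across the 16 classes with 50 or more cells, the genes whose profile was most like each member's were found among 9377 genes by Pearson correlation of log2(CPM + 1) class means. The 16 points share 2 libraries and are no replicates. Cldn4 was closest to Bspry (r = 0.95). Pvrl1, the nectin-1 gene, was among the genes closest to Ocln (r = 0.93). Cldn1 was closest to Exph5 (r = 0.92), F11r to Lsr (r = 0.87), which encodes a protein of tricellular junctions, and Cdh3 to Klhl23 (r = 0.93). Tjp1 and Cdh1 had weaker matches, to Cyfip2 (r = 0.81) and Klf6 (r = 0.81). For Cldn7, which was at most at 2.42 CPM in these classes, no profile could be compared.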

How the data were processed

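Single-cell RNA-seq of the epidermis was read from 1 table per mouse of UMI counts, which the authors deposited as made by Cell Ranger 3.0.2 on mm10 (per the labels). The counts are raw, so no normalization preceded this work. Members and gene lists were chosen with earlier results of these data known.

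The filters asked for 900 to 7700 genes per cell and for mitochondrial UMIs below 10%. They were integrated and clustered with Seurat 5.3.0 (R 4.3.3; 2000 variable genes, 30 dimensions, Louvain resolution 0.8), leaving out 66 junction and regulator genes. Clusters were named from marker lists. The naming thresholds and the Scrublet score of 0.2 (scanpy 1.11.5) were set after the data were seen. Called doublets were kept and left out in an alternative.

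UMIs were summed per mouse and class (at least 10 cells). Sums were tested with edgeR 4.0.16 (quasi-likelihood, TMM, Benjamini-Hochberg over all genes tested, threshold 0.05) in 1 fit of 12 sums from 6 IFE classes (11662 genes) and 1 of 34 sums from 17 classes (14102 genes). The tests were also run on simulated data with 200 changed genes and no shift between mice. That run cannot show how they behave on sums paired by mouse. With 2 mice, p-values of the main fits rest on the differences between these mice within a class, pooled over all classes of a fit. With the mouse as a block, a shift shared by the classes of 1 mouse is taken out of that spread. The classes come from the same 2 animals, so the mouse pairs the sums, which the main fits treat as independent. The deviations of classes of 1 mouse correlated with r from 0.0137 to 0.337 in the IFE fit (15 pairs) and -0.0394 to 0.356 over all classes (136 pairs). Intervals and floors cover counting error only.

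Genes named beside the members were, in each IFE comparison, up to 4 listed junction genes or regulators with the largest absolute log2 fold change past the threshold, and the closest profiles of each member. One gene that this rule names is not reported here. Alternatives were the mouse as a block, DESeq2 1.42.0, size factors, no filter on low counts, total UMIs, resolution 1.2, mitochondrial UMIs under 5%, doublets left out, the fit over all classes, unnamed IFE clusters counted as basal, and each mouse left out.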

Additional observations from a re-analysis of the deposited data

How the results depend on the processing

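Over 10 alternatives, 742 of 840 values of the members kept their direction and their side of the threshold, 31 lost the call, 42 gained one and 25 changed sign, 23 of them called neither before nor after. Of 51 calls, 34 held under every alternative run, and 50 had the same sign in both mice. The exception was Cldn4 in terminally differentiated against resting basal cells, at -0.17 without mouse 2 and 2.61 without mouse 1. At resolution 1.2, upper follicle against differentiated cells was -0.82 for Cldn4 and -0.0014 for Tjp1. These 23 are given by setting. With mitochondrial UMIs under 5% these were Cldn1 0.11 in differentiated, Cldn4 0.45 in follicle, Ocln 0.24 in follicle, Cldn4 -0.40 in upper follicle against differentiated, Cldn4 0.54 in Langerhans cells. With total UMIs these were Tjp1 0.21 in terminally differentiated against differentiated, Ocln 0.060 in dividing, Cdh1 0.080 in dividing, Cldn4 0.072 in follicle, Ocln 0.36 in upper follicle against differentiated, Cdh1 0.30 in upper follicle against differentiated, Cdh3 0.050 in melanocyte cells. At resolution 1.2 these were Cldn4 0.33 in follicle, Cdh3 0.11 in melanocyte, Cldn4 0.18 in Langerhans, Cldn7 0.058 in Langerhans cells. With unnamed clusters counted as basal these were Cldn4 0.043 in follicle, Cldn7 0.19 in follicle, Cldn7 0.13 in Langerhans cells. Ocln in upper follicle against differentiated cells was 0.030 (no filter), 0.028 (size factors), 0.024 (DESeq2), 0.0062 (doublets left out). With the mouse as a replicate block, members called became 5 for terminally differentiated and 3 for dividing against resting basal cells, with 3681 genes called in the latter, and the block removed no call of a member. Without a filter on low counts these members numbered 5 and 3. Members called in dividing cells were 0 with total UMIs and under DESeq2, and 2 at resolution 1.2, with unnamed clusters counted as basal and in the fit over all classes. With total UMIs 1 member was called in terminally differentiated against differentiated cells. With mitochondrial UMIs under 5%, which left 51 resting basal cells in KO mouse 1, genes called were 471 in transition, 3294 in differentiated, 1862 and 1283 in terminally differentiated cells against differentiated and resting basal cells, 2475 in follicle, 3205 in upper follicle, 4326 in inner root sheath or hair shaft, 3695 in sebaceous and 4197 in melanocyte cells. Members called there were 2 and 1 in terminally differentiated cells and 3 each in sebaceous and melanocyte cells, and the dividing comparison could not be run. At resolution 1.2, 3975 genes were called in transition cells. Leaving out a mouse left 1 sum per class, so that gave values with no test. Other causes of these changes were not tested.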
